A study of Zea mays with 6 samples.

Results

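Jasmonate ZIM-domain (JAZ) genes were compared between ovaries of maize (*Zea mays* L.) with incompletely fused carpels (*ifc*) and wild-type (WT) ovaries. The genes described are 7 rows of the deposited expression table whose closest *Arabidopsis* gene is *JAZ1/TIFY10A* (4 rows) or *JAZ2/TIFY10B* (3 rows). The table holds 25368 rows in all, of which 12 carry one of these symbols. The others are 5 rows that are described beside them. The 7 rows bear the study's own call of differential expression, so they were selected on the same pooled values that are described here, and their higher level in *ifc* is not an independent finding.

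The *ifc* group was 3 libraries of ovaries labelled as the IFC mutant, with an open stylar canal at the top of the ovary, and the WT group was 3 libraries of ovaries labelled wild type, with a closed one. All ovaries were taken before pollination from unstressed plants of 1 inbred line, Yu-A474. The study's methods state that *ifc* and normal ovaries stood next to each other on the same ear, so the 2 groups name phenotypes within an ear rather than separate stocks. The table gives 1 value for *ifc* and 1 for WT, in FPKM, made from the reads of the 3 libraries together. FPKM is the number of sequenced fragments scaled by transcript length and library size. Here library size was set by the authors' quartile normalization, so the totals of *ifc* and WT need not be equal. Values per library were not used here, so no value below has an error or a test, and the pooled values do not show whether a difference exceeds the spread between libraries. In the study's supplement, GRMZM5G838098 and GRMZM2G445634 vary widely between libraries of the same phenotype, which limits what their pooled ratios show.

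JAZ proteins are repressors of the jasmonate response. In *Arabidopsis* they hold back MYC2 and related transcription factors and recruit the corepressor TOPLESS through the adaptor NINJA. When jasmonoyl-isoleucine is present it binds JAZ together with the F-box protein COI1, and the JAZ protein is degraded. Many *JAZ* genes are themselves switched on by MYC factors, so their transcripts are widely used as a readout of the pathway, and *JAZ1* is also known as an early auxin-responsive gene in *Arabidopsis*. In maize, jasmonate is best known in flowers for the loss of pistils from tassel florets.

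The labelled tissue was checked against the matches of *AG*, *STK*, *SHP2*, *CRC* and *SEP3*, floral regulators of carpels and ovules. All 13 of their rows had an FPKM above 2, with 4.71 to 695 FPKM in *ifc* and 5.45 to 754 in WT, and 0 differed by more than 1.5-fold. On the authors' scale 12 of the 13 were lower in *ifc*, beside 11417 of the 21093 rows with an FPKM above 2 in *ifc* or WT. The median log2 ratio was -0.12 for the 13 and -0.02 for those rows. The *CRC* match GRMZM2G102218 differed most of the 13, at 47.5 FPKM in *ifc* and 70.9 in WT. The part of this shift in the *JAZ* values was not tested. All 19 matches of light-harvesting proteins, markers of green tissue, summed to 531 FPKM in *ifc* and 588 in WT. Of these, 15 rows were above 2 FPKM, and 0 of the 15 differed by more than 1.5-fold. *EF1a* (GRMZM2G153541), the reference gene of the study's qRT-PCR, had 845 FPKM in *ifc* and 710 in WT. In whole ovaries, more cells of a type that expresses a gene and more RNA per cell cannot be told apart.

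The 7 genes lie on 5 chromosomes of B73 RefGen_v3. The *JAZ1* matches are GRMZM2G005954 at chr2:184649166-184651569, GRMZM2G116614 at chr7:121257088-121259235, GRMZM5G838098 at chr1:16782462-16783895 and GRMZM2G445634 at chr1:16791539-16792462. The *JAZ2* matches are GRMZM2G036351 at chr9:150514711-150515694, GRMZM2G173596 at chr5:36976139-36977007 and GRMZM2G117513 at chr1:69894563-69897090. These positions are whole gene spans, of 869 to 2528 bases, and 6 of the 7 genes have 1 annotated start site. In RefSeq (B73 NAM 5.0) all 7 could be matched by identifier, and each carries a maize TIFY name, such as TIFY25 for GRMZM2G116614, TIFY28 for GRMZM2G036351, TIFY15 for GRMZM2G005954, TIFY20 for GRMZM2G173596 and TIFY4 for GRMZM2G445634. Several maize genes share 1 *Arabidopsis* match. Reads that fit more than 1 copy were divided by the authors' correction for multi-mapped reads, so the value of a single copy is less certain than the sum.

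For 4 of the 7 genes the study designed qRT-PCR primers. They are shown because each pair is listed for 1 gene among several that share an *Arabidopsis* match. All 8 sequences differ, but they were not compared with the other copies. The qRT-PCR values were not used here.
GRMZM2G116614 forward: gagagagaaaggcgttgcag
GRMZM2G116614 reverse: aggaaagagcccgtcgtatt
GRMZM5G838098 forward: cgaggaaggtgtcgctaaag
GRMZM5G838098 reverse: gctgctgggtatggatctg
GRMZM2G445634 forward: tgtgatttggatctcgcttg
GRMZM2G445634 reverse: tctccgatctccacaccaac
GRMZM2G036351 forward: tcgcgctgtgatttactggat
GRMZM2G036351 reverse: ccaaaggcaggcatgatcat

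All 7 genes were higher in *ifc* than in WT by more than 1.5-fold, with an FPKM above 2 in at least 1 phenotype. Of the 21093 rows of the table with such an FPKM, 4.13% were higher in *ifc* by more than 1.5-fold and 2.55% were lower. The count of 7 of 7 follows from the way the genes were chosen and is given as a description. Their median log2 ratio was 1.46, against -0.02 for all rows above 2 FPKM. Summed over the 7 genes, the level was 318 FPKM in *ifc* and 149 in WT, a ratio of 2.14. One row of GRMZM2G070931 was listed at 0 in *ifc* and took up 55.6% of the WT total, so ratios are given on the authors' own scale. Scaling *ifc* and WT to an equal total would raise every log2 ratio by 1.13, with 96.9% of rows above 2 FPKM then higher in *ifc* by more than 1.5-fold. Without that row the shift would be -0.05.

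**Figure D1:**
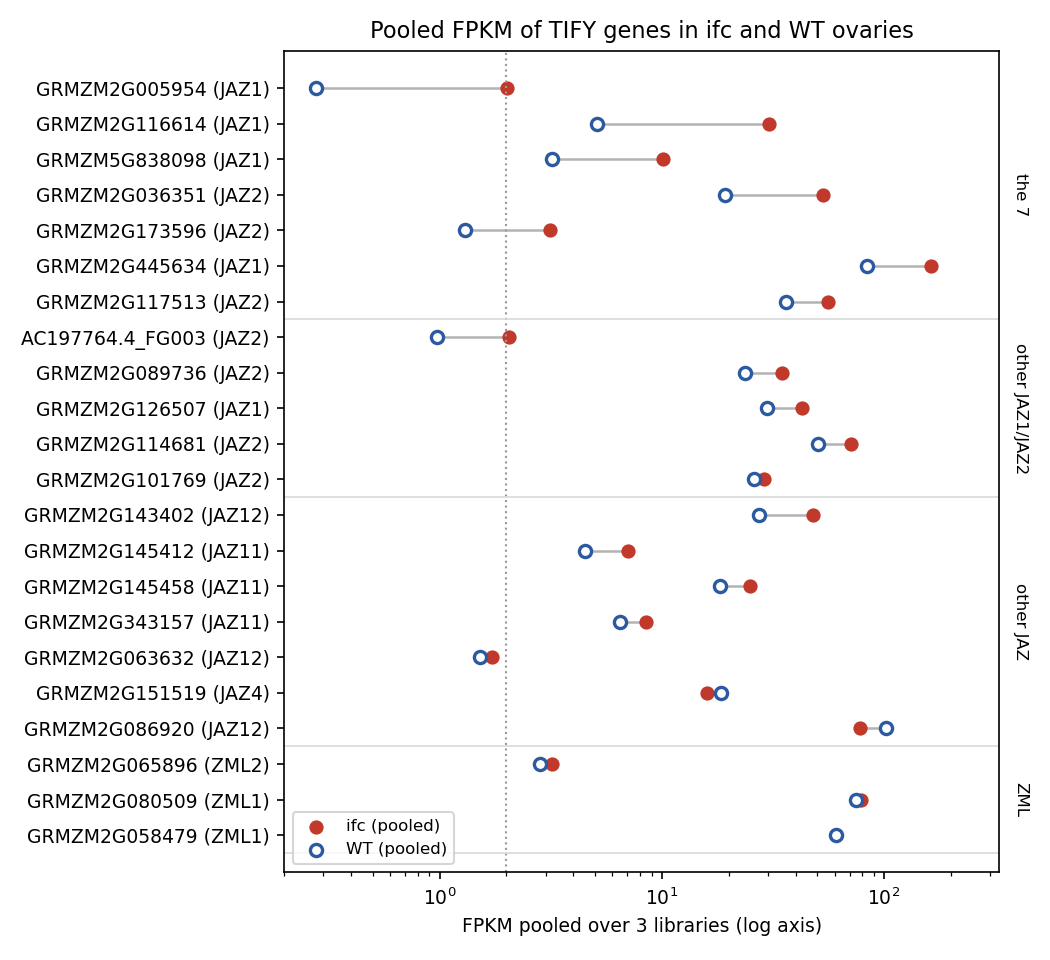
Pooled FPKM (log axis) of the 22 rows with a JAZ, TIFY or ZML symbol, 1 filled point for *ifc* and 1 open point for WT, without error bars because each is a single pooled value. The dotted line is 2 FPKM. The 7 genes run from 2.01 to 163 FPKM in *ifc* and from 0.279 to 83.5 in WT, with the *ifc* point to the right in each.

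The 4 *JAZ1* matches covered a wide range of levels and ratios. GRMZM2G445634 was the most abundant of the 7, with 163 FPKM in *ifc* and 83.5 in WT, a ratio of 1.95. It ranked 598 of all rows in *ifc* and 1424 in WT, so it was among the more abundant transcripts in both phenotypes. GRMZM2G116614 had 30.4 FPKM in *ifc* and 5.12 in WT, a ratio of 5.93. Its rank was 4857 in *ifc* and 16480 in WT, the widest gap in rank among the 7, and its log2 ratio of 2.57 ranked 36 of the 21093 rows above 2 FPKM.

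GRMZM5G838098 stood at 10.2 FPKM in *ifc* against 3.20 in WT, 3.17-fold higher. GRMZM2G005954, for which the table gives the description TIFY transcription factor, had 2.01 FPKM in *ifc* and 0.279 in WT. Its ratio of 7.22 was the highest of the 7 but rests on the lowest levels, and its *ifc* value is barely above the minimum of 2. With 1 added to both values its log2 ratio was 1.24 rather than 2.85. Together the 4 *JAZ1* matches summed to 205 FPKM in *ifc* against 92.1 in WT, and GRMZM2G445634 alone made up most of both sums.

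The ratios of the 3 *JAZ2* matches ran from 1.56 to 2.76. GRMZM2G036351, a tify domain/CCT motif protein in the table, reached 53.0 FPKM in *ifc* against 19.2 in WT, 2.76-fold higher. GRMZM2G117513 reached 56.2 FPKM in *ifc* against 36.1 in WT, 1.56-fold higher, the smallest ratio of the 7. GRMZM2G173596 stood at 3.13 FPKM in *ifc* against 1.30 in WT, 2.41-fold higher. This gene and GRMZM2G005954 pass the minimum of 2 FPKM through their *ifc* value alone. GRMZM2G036351 and GRMZM2G117513 thus had nearly the same level in *ifc* while GRMZM2G117513 was the more abundant of the pair in WT.

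Ordered by level in *ifc*, the genes were GRMZM2G445634, GRMZM2G117513, GRMZM2G036351, GRMZM2G116614, GRMZM5G838098, GRMZM2G173596 and GRMZM2G005954. The order was the same in WT. Which neighbours in it differ beyond their spread cannot be said from single pooled values. The ratios followed another order, in which the most abundant copies stood low. GRMZM2G445634 and GRMZM2G117513 had the smallest ratios of the 7, and 5 of the 7 genes were past 2-fold. As a difference rather than a ratio, GRMZM2G445634 stood first, with 79.2 FPKM more in *ifc*, followed by GRMZM2G036351 with 33.8, GRMZM2G116614 with 25.3 and GRMZM2G117513 with 20.1. The differences of the other genes were 1.73 to 6.95 FPKM. Of the 7, 5 had at least 10 FPKM in *ifc* and 3 in WT.

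The threshold of 1.5-fold cut through a continuous run of ratios. Just inside it was GRMZM2G117513 at 1.56. Just outside were 3 rows that share the same *Arabidopsis* matches. GRMZM2G089736 (*JAZ2*) had 34.9 FPKM in *ifc* and 23.6 in WT, a ratio of 1.48. GRMZM2G126507 (*JAZ1*) had 42.9 FPKM in *ifc* and 29.7 in WT, a ratio of 1.45. GRMZM2G114681 (*JAZ2*) had 71.4 FPKM in *ifc* and 50.4 in WT, a ratio of 1.42. These copies were abundant in both phenotypes.

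Of the remaining rows, GRMZM2G101769 (*JAZ2*) had 28.8 FPKM in *ifc* and 26.1 in WT, a ratio of 1.10. AC197764.4_FG003 (*JAZ2*) had 2.05 FPKM in *ifc* and 0.976 in WT, a log2 ratio of 1.07, so it is past 1.5-fold and 2 FPKM without being one of the 7. All 12 rows had the higher value in *ifc*, beside 9676 of the 21093 rows above 2 FPKM, and the 12 include the 7 chosen for being higher. The median log2 ratio was 1.02 over the 12 rows and 0.53 over the 5 outside the 7. Summed, the 12 rows had 498 FPKM in *ifc* and 279 in WT, a ratio of 1.78. The 7 genes made up 63.8% of this sum in *ifc* and 53.2% in WT. They accounted for 77.4% of the difference between the sums, and GRMZM2G445634 alone for 36.3%. The 7 were chosen for being past 1.5-fold in these values, so their larger share in *ifc* follows from the choice.

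**Figure D2:**
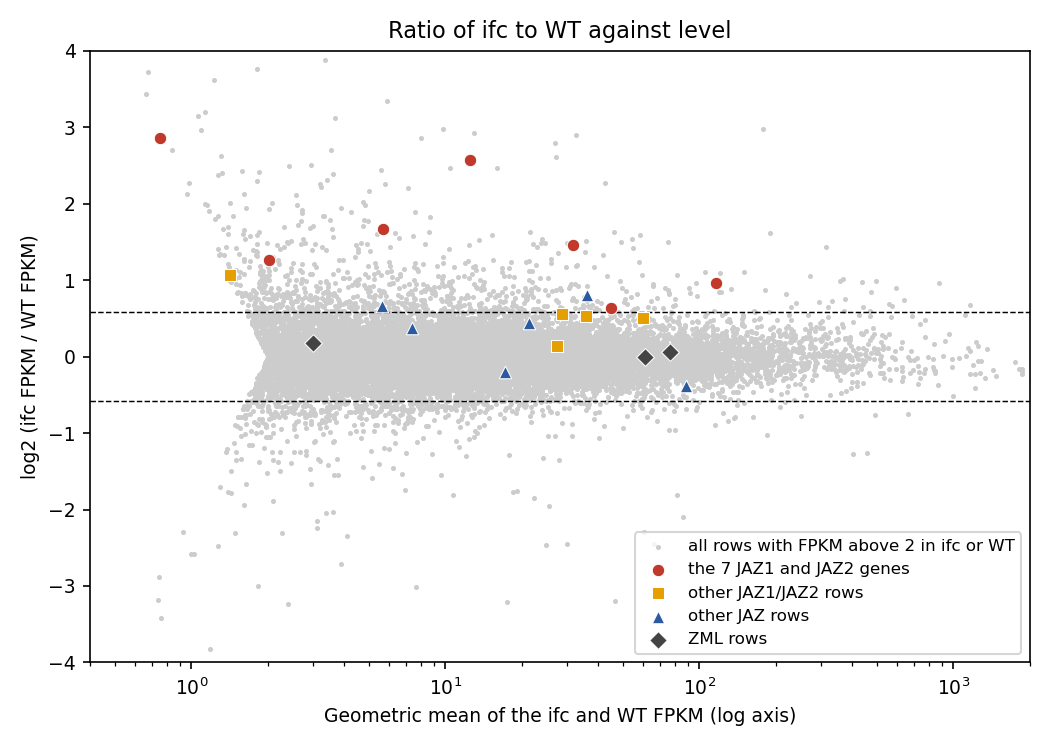
log2 ratio of *ifc* to WT FPKM against the geometric mean of both FPKM (log axis), with each row above 2 FPKM as a grey point and the TIFY genes by group. Dashed lines are at 1.5-fold in either direction, and 42 rows lie outside the axes. The 7 genes lie between 0.64 and 2.85, the other JAZ1 and JAZ2 rows between 0.14 and 1.07.

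Beyond *JAZ1* and *JAZ2*, the TIFY family had 10 further rows, of which 9 were above 2 FPKM. Among these, 2 were higher in *ifc* by more than 1.5-fold and 0 were lower, beside 4.13% and 2.55% of all rows. GRMZM2G143402, a match of *JAZ12*, had 47.7 FPKM in *ifc* and 27.4 in WT, a ratio of 1.74. GRMZM2G145412, a match of *JAZ11*, had 7.08 FPKM in *ifc* and 4.49 in WT, a ratio of 1.58. The most abundant of these rows in WT, GRMZM2G086920, is also a match of *JAZ12* and was on the other side, with 77.8 FPKM in *ifc* and 102 in WT, a ratio of 0.764. It is lower in *ifc* on the authors' scale and would be higher under the equal total.

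The match of *JAZ4*, GRMZM2G151519, had 16.0 FPKM in *ifc* and 18.4 in WT. The 3 matches of *ZML1* and *ZML2*, which are TIFY proteins with a GATA zinc finger and no JAZ function in *Arabidopsis*, had ratios of 0.998 to 1.13. The median log2 ratio of the 9 rows was 0.17, against 1.02 for all 12 *JAZ1* and *JAZ2* rows. That of the 7 genes, 1.46, is set by their choice past 1.5-fold. Over all 22 rows of the family, 19 were higher in *ifc*, beside 12357 of all 25368 rows. The 19 include the 7 genes chosen for being higher. Of the 10 rows outside *JAZ1* and *JAZ2*, 7 were higher.

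A group of 3 TIFY genes stood within 16.3 kb on chromosome 1. GRMZM5G838098 and GRMZM2G445634 are next to each other on the plus strand, with 7.64 kb between them. GRMZM2G343157, a match of *JAZ11* on the minus strand, begins the group, with 5.14 kb to GRMZM5G838098. From GRMZM2G343157 to GRMZM2G445634 the ratios were 1.30, 3.17 and 1.95, while the levels in *ifc* were 8.46, 10.2 and 163 FPKM. The 2 rows after the group, GRMZM2G445630 and GRMZM2G147920, had ratios of 0.964 and 1.10 at under 2 FPKM. On chromosome 5, GRMZM2G173596 and AC197764.4_FG003 are neighbouring rows as well, 122 kb apart, with log2 ratios of 1.27 and 1.07.

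Rows next to the 7 genes were compared as well. The 2 nearest rows on either side of each gene gave 22 rows that are not TIFY genes, of which 0 were past 1.5-fold with an FPKM above 2. Their median log2 ratio was 0.08. Below that minimum, 3 were higher and 1 was lower by more than 1.5-fold, among them GRMZM2G100372 before GRMZM2G005954, at 0.580 FPKM in *ifc* and 0.165 in WT. No row of the table overlapped any of the 7 genes.

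**Figure D3:**
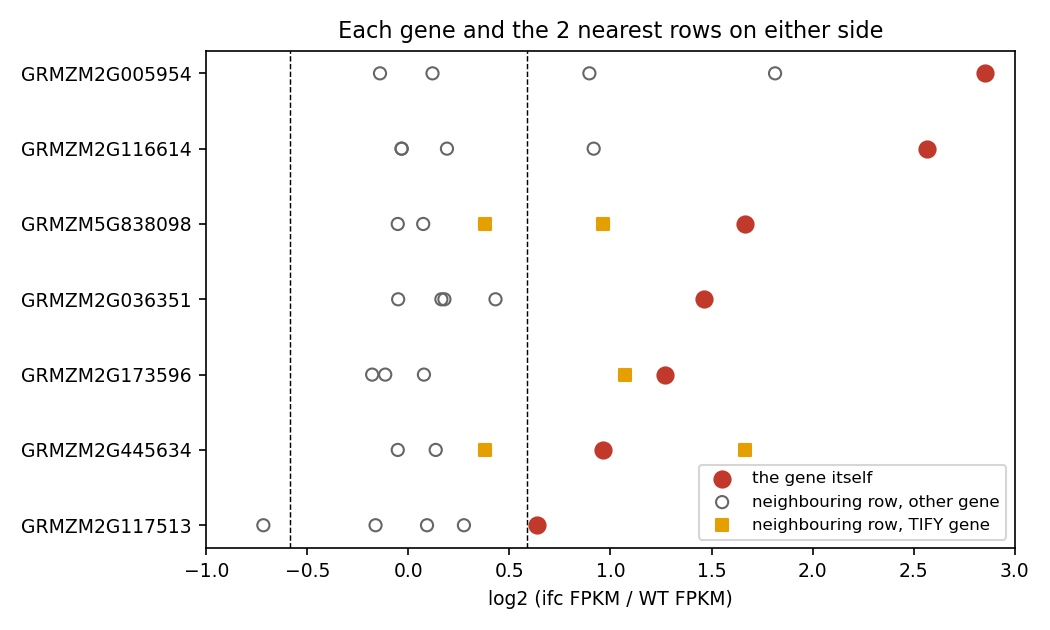
log2 ratio of *ifc* to WT FPKM for each of the 7 genes (large points) and the 2 nearest rows on either side of it (open circles, or squares where the neighbour is a TIFY gene). Dashed lines are at 1.5-fold. Open circles past a line are rows under 2 FPKM, and the squares past it are GRMZM5G838098, GRMZM2G445634 and AC197764.4_FG003.

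Genes listed by their match under jasmonate synthesis were placed beside the repressors. Of 26 rows above 2 FPKM, 4 (15.4%) were higher in *ifc* by more than 1.5-fold and 0 were lower, beside 4.13% and 2.55% of all rows, and their median log2 ratio was 0.19. GRMZM2G002178 matches allene oxide synthase (*AOS*), the first enzyme particular to the pathway, and had 7.26 FPKM in *ifc* and 4.19 in WT, a ratio of 1.73. GRMZM2G052389, a match of the peroxisomal acyl-CoA oxidase *ACX1*, had 12.9 FPKM in *ifc* and 7.79 in WT, a ratio of 1.66. GRMZM2G354558, a match of *FAD8*, an omega-3 desaturase that supplies the fatty acid precursor, had 3.11 FPKM in *ifc* and 1.27 in WT. Other matches of *AOS*, *ACX1* and *FAD8* above 2 FPKM had ratios of 0.879 to 1.25. Among them, the most abundant *AOS* match, GRMZM2G067225, had 53.4 FPKM in *ifc* and 49.4 in WT. The *LOX2* match GRMZM2G009479 had 241 FPKM in *ifc* and 256 in WT. The widest ratio was that of the lipoxygenase GRMZM2G156861, at 2.83, with 82.9 FPKM in *ifc* and 29.3 in WT. Its match *LOX1* encodes an enzyme of the 9-lipoxygenase type in *Arabidopsis*, which does not feed jasmonate synthesis there. This row is nevertheless among the 4 counted above. Other *LOX1* matches in the list had ratios of 1.08 to 1.24.

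Among genes that conjugate or remove jasmonates, 2 of 9 rows above 2 FPKM were higher in *ifc* by more than 1.5-fold and 0 were lower, against the same 4.13% and 2.55%. GRMZM2G476538, a match of *ILL6*, an amidohydrolase that cleaves jasmonoyl-isoleucine, had 7.64 FPKM in *ifc* and 1.99 in WT, a ratio of 3.84. GRMZM2G396248, a match of the cytochrome P450 *CYP94C1*, which oxidizes the same conjugate, had 9.86 FPKM in *ifc* and 5.78 in WT, a ratio of 1.71. Another *CYP94C1* match, GRMZM2G159179, had a ratio of 1.30, and GRMZM2G016264 had 1.23. The most abundant *CYP94C1* match, GRMZM2G171139, had 48.3 FPKM in *ifc* and 48.0 in WT. GRMZM2G061005 matches *JAR1*, the enzyme that makes the conjugate, and had 8.89 FPKM in *ifc* and 12.0 in WT.

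Genes of perception and transcription stood close to equal levels. Of 18 rows above 2 FPKM, 0 were past 1.5-fold in either direction, and their median log2 ratio was -0.04. GRMZM2G001930, a match of *MYC2*, had 99.2 FPKM in *ifc* and 69.2 in WT, a ratio of 1.43, the widest of this group. The *COI1* matches GRMZM2G125411 and GRMZM2G079112 had ratios of 0.814 and 0.855, and the TOPLESS-related GRMZM2G316967 had 0.855.

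Genes of early wound and touch responses were looked at as well. Of 22 such rows above 2 FPKM, 6 (27.3%) were higher in *ifc* by more than 1.5-fold and 0 were lower, beside 4.13% and 2.55% of all rows, with a median log2 ratio of 0.16. Of all 27 rows, 8 were lower in *ifc*. The 6 are matches of *TCH4*, *WRKY40*, *WRKY33* and *ZAT10*, with ratios of 1.63 to 3.09, while other copies of *TCH4* and *ZAT10* had ratios of 0.917 to 1.24. Of 13 rows described as wound-induced or as protease inhibitors, 7 (53.8%) were higher by more than 1.5-fold and 1 was lower. The lower row, GRMZM2G170969, is described as a lipid transfer family protein. The proteinase inhibitor WIP1 (GRMZM2G011523), had 498 FPKM in *ifc* and 63.2 in WT. The genes of this paragraph were named after their values were seen. The part of these responses in the *JAZ* values was not tested.

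**Figure D4:**
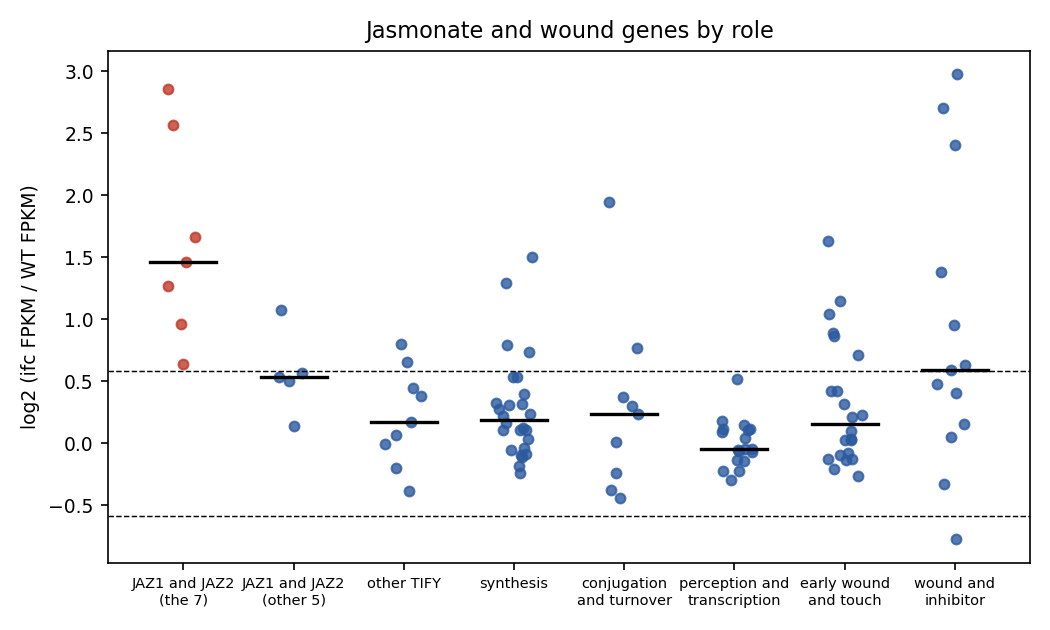
log2 ratio of *ifc* to WT FPKM of each row above 2 FPKM, by role, with the median as a black line and dashed lines at 1.5-fold. The medians are 1.46 for the 7 genes, which were chosen by this ratio, 0.53 for the other JAZ1 and JAZ2 rows, 0.17 for other TIFY rows, 0.19, 0.23 and -0.04 for the jasmonate roles in the order drawn, and 0.16 and 0.59 for the wound groups.

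The annotation was uneven over the 7 genes. The hormone signal transduction pathway of KEGG was assigned to 3 of them, GRMZM2G005954, GRMZM2G116614 and GRMZM2G036351. This annotation was looked at after values were seen. Besides these 3, which were chosen for being higher, it covers 100 rows above 2 FPKM, of which 0 were higher in *ifc* by more than 1.5-fold and 6 were lower, beside 4.13% and 2.55% of all rows. Rows near GRMZM2G116614 in level in both phenotypes were sought only among rows with an *Arabidopsis* symbol. Distance was Euclidean, in log2 FPKM over the 2 pooled values. The nearest of these were matches of the peptide hormone precursor *PSK4* (GRMZM2G044194, distance 0.366), of the chloroplast enzyme *GAPB* (GRMZM5G845611, 0.785) and of the aquaporin *PIP2* (GRMZM2G154628, 0.934).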

How the data were processed

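RNA of 3 *ifc* and 3 WT ovary libraries was sequenced. The authors trimmed the reads with Trimmomatic, mapped them with TopHat2 to B73 RefGen_v3 and kept exonic reads. Cufflinks and Cuffdiff then gave the deposited FPKM values from the reads of each phenotype together, under quartile normalization and corrections for fragment bias and multi-mapped reads. The table holds no counts, so the depth behind a value is unknown. Its fold changes, p-values and q-values are the authors' comparisons and were not used, and neither were values per library from elsewhere.

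Ratios were computed as *ifc* over WT FPKM, without a pseudocount. A row counted as past the threshold at above 1.5-fold with an FPKM above 2 in *ifc* or WT, as in the study's criteria but without their p-value. Lists were matched by *Arabidopsis* symbol or description. The genes named are the 7, the other TIFY rows past 1.5-fold and, per jasmonate list, the 4 rows with the largest absolute log2 ratios. Also named are neighbouring rows past 1.5-fold with an FPKM above 2. So are the 3 rows with an *Arabidopsis* symbol nearest in level to GRMZM2G116614. Other rows were named after their values were seen. The 7 genes and the lists were chosen with earlier results of these data known. The code of the calls was checked on values without noise in which set fold differences had been placed. This check does not show how reliable a call is. Promoter and protein sequences were not analysed here. Python 3.11.15, numpy 2.4.6, pandas 2.3.3 and matplotlib 3.10.9 were used.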

Additional observations from a re-analysis of the deposited data

How the results depend on the processing

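The log2 ratios of the 7 genes ran from 0.59 to 3.98 over 49 values from 7 alternatives. That all stayed above 0 follows from the choice of genes past 1.5-fold. The lowest scaling shift was -0.05, and a pseudocount added to both values cannot change the sign. All 7 were past the threshold in 7 of 10 alternatives, 6 with equal totals without GRMZM2G070931 (GRMZM2G005954 was then under 2 FPKM), and 5 with a minimum of 10 FPKM or a fold of 2. With *ifc* and WT scaled to an equal total, their median log2 ratio was 2.59 and that of their sum 2.22, with 10 other TIFY rows and 59 jasmonate rows past the threshold. By construction, GRMZM2G070931 sets that scaling. In it 99.8% of the rows past the threshold were higher in *ifc* (22664 rows higher and 55 lower), against 61.8% on the authors' scale (871 and 538). The other TIFY rows past the threshold numbered 1 with a pseudocount of 1, 1 with a minimum of 10 FPKM and 0 with a fold of 2, against 2. The jasmonate rows numbered 2 with that minimum and 3 with that fold, against 6. These counts include the *LOX1* match GRMZM2G156861. Over all rows, 1878 were higher without a minimum, 376 with a minimum of 10 FPKM and 302 with a fold of 2. No paired analysis was possible because the pooled values used here carry no replicate numbers, and for the same reason no library was left out. Without counts or values per library, the precision of low values such as those of GRMZM2G005954 is unknown.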

Other observations

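Early auxin genes were looked at because *JAZ1* is auxin-responsive in *Arabidopsis*. Of 31 rows above 2 FPKM whose match carries an *IAA* or *GH3* symbol, among them auxin response factors with an *IAA* alias, 2 were higher in *ifc* by more than 1.5-fold and 1 was lower, beside 4.13% and 2.55% of all rows, and their median log2 ratio was -0.06. GRMZM2G057067, a match of *IAA26*, had 8.71 FPKM in *ifc* and 5.09 in WT. GRMZM2G378106, a match of the auxin-conjugating enzyme *GH3.1*, had 2.08 FPKM in *ifc* and 1.03 in WT. GRMZM2G163848, a match of *IAA8*, had 3.33 FPKM in *ifc* and 7.85 in WT. These 3 rows were named after their values were seen.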
